A study of Sus scrofa with 11 samples.

Results

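Slices of pig heart held in culture for 6 days were compared with slices at day 0, using 3 libraries from each time point, that is 6 of the 11 libraries of the series. The members are the libraries that the labels place at day 0 and at day 6 of stimulation, and no measured value entered that choice. All animals were wild-type Yorkshire pigs aged 3 months, and the tissue is labelled heart, with no chamber or wall layer named. The day 0 group is labelled by its time alone, and the day 6 group is labelled as stimulated culture, as are the 2 libraries of day 2 and the 3 libraries of day 10 used here for comparison. What was used as stimulation is not named in the labels, and no unstimulated culture is among these libraries, so 6 days of culture and the stimulation cannot be told apart. Nor do they say that replicates came from separate animals, so p-values measure the spread between these libraries, which may be technical. The study followed RNA over time in culture, and the question addressed here is how far the transcriptome at day 6 differed from that at day 0.

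Heart muscle cells hold dense arrays of sarcomeres, in which myosin thick filaments pull on actin thin filaments anchored at the Z-disc, and they draw most of their energy from fatty acids burned in mitochondria. Cut tissue placed in culture loses its blood supply and nerves, and load, oxygen, nutrients and hormones change at the same moment. Stressed cells are known to raise chaperones and enzymes of defence, such as those of the unfolded protein response of the endoplasmic reticulum (ER), the heat shock response and the NRF2 response to oxidants. Endothelial cells, fibroblasts, pericytes and macrophages lie between the muscle cells, so RNA from a slice is a mixture. In such bulk tissue, fewer cells of a type and less RNA per cell cannot be told apart.

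RNA abundance was measured by sequencing and given by the authors as FPKM, in which the fragments counted on a gene are divided by its length and by the library total. The libraries held 11695060 to 16773577 reads on genes, as recovered from the FPKM steps. Day 0 replicate 2 and day 2 replicate 1 stood apart, with 4536 and 4017 of 16319 genes at 0, where the other 9 libraries had 1310 to 2331. In day 0 replicate 2 the median gene was at 0.6 FPKM, against 4.21 and 4.06 in the other day 0 libraries and 5.68, 5.17 and 6.7 at day 6. It was the lowest of the 3 day 0 libraries for 74.8% of the tested genes. The tissue label was checked against 9 cardiomyocyte markers: none was at 0 in any day 0 or day 6 library, and their summed level was 59556 to 89105 FPKM at day 0 and 9986 to 22905 FPKM at day 6.

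At day 6, many transcripts of chaperones, the secretory pathway, amino acid and lipid synthesis, oxidant defence, matrix proteases and growth-related transcription factors were higher than at day 0, and a smaller set of transcripts of contraction, ion channels and fatty acid use was lower. Of 12625 genes tested with limma on log2(FPKM + 1), 1428 differed at an adjusted p under 0.05 (11.3%), of which 1206 were higher (9.55%) and 222 lower (1.76%). The smallest change called was 1.28 on the log2 scale and the median size of a called change was 2.23, beside a median SE of 0.59. The groups did not overlap for 5754 genes (45.6%). For 4900 genes (38.8%) every day 6 library lay above every day 0 library, and for 854 (6.76%) every day 6 library lay below.

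The balance of higher and lower genes depended on the scaling of the libraries. As deposited, the median gene had a log2 fold change of 0.88, and 78.3% of genes had a positive value. With libraries brought to a common level by the median of gene ratios, in which day 0 replicate 2 had a factor of 0.285 and the day 6 libraries factors of 1.23 to 1.55, the median was 0.09, and 899 genes passed (7.21%), 279 higher (2.24%) and 620 lower (4.97%). Quantile normalization gave 676 higher and 934 lower. These factors lower a log2 fold change by less than 1.28, the smallest change called. None of the 1206 higher genes could therefore change sign with median ratio scaling, and 279 of them were still called higher. The same downward shift favours lower calls, and 214 of the 222 lower genes were still called lower. List medians below are therefore read against 0.88, the median of all genes, and repeated with median ratio scaling.

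**Figure D1:**
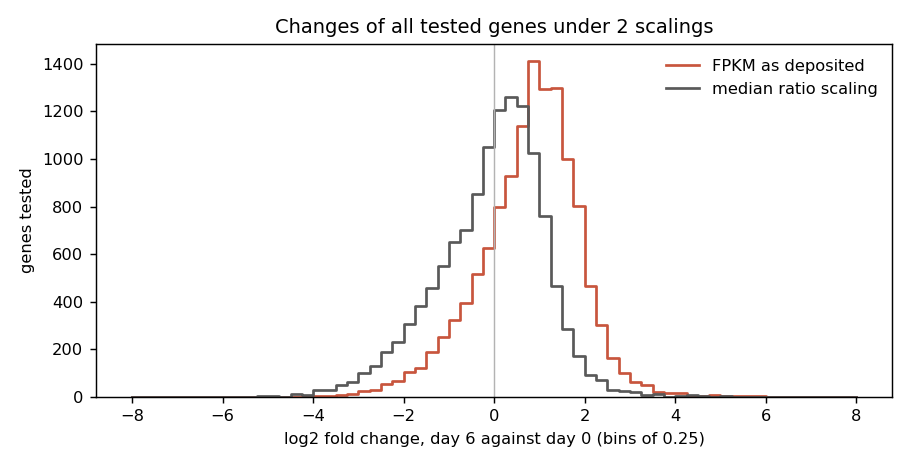
Histogram of the log2 fold change of all tested genes, day 6 against day 0 (x axis, bins of 0.25; y axis, number of genes), for FPKM as deposited and after median ratio scaling. The deposited values centre on 0.88 and the rescaled values on 0.09, and the rescaled curve holds more genes at strongly lower values.

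The calls also rested unequally on single libraries. Without day 6 replicate 1 the count fell to 119 genes (105 higher, 14 lower), without day 6 replicate 3 to 352, without day 6 replicate 2 to 578 and without day 0 replicate 3 to 830. Without day 0 replicate 2, the library with the low median, 1249 genes passed (9.89%), 842 higher (6.67%) and 407 lower (3.22%), and the median change was 0.46. A call held in each of the 6 fits that left out 1 day 0 or day 6 library for 101 higher and 14 lower genes. Counts for gene lists are repeated below in 4 checks, given in the order median ratio scaling, quantile normalization, the fit without day 0 replicate 2 and the fit without day 6 replicate 1. List counts are to be read beside all tested genes, of which 9.55% were called higher and 1.76% lower in the main fit. The shares were 2.24% and 4.97% with median ratio scaling, and 6.67% and 3.22% without day 0 replicate 2. Of 12625 genes, 676 and 934 were called higher and lower with quantile normalization, and 105 and 14 without day 6 replicate 1. Where a named call ended without a library, that library and the adjusted p are given with it. Each log2 fold change below is on the log2(FPKM + 1) scale, is followed by ± its SE and rests on 3 libraries against 3 unless stated. Members of a list with fewer than 3 calls are named because they passed, that is after their values were seen.

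Among the transcripts most reduced at day 6 were RXRG, a retinoid X receptor of heart and skeletal muscle, ASB2, a ubiquitin ligase subunit that targets filamins, KCNJ4, an inward rectifier potassium channel, and PLIN5, a lipid droplet protein of oxidative tissues. RXRG stood at 49.7, 117 and 91.7 FPKM in day 0 replicates 1 to 3 and at 2.02, 11.4 and 0.969 FPKM at day 6 (log2 fold change -4.30 ± 0.70, adjusted p = 0.00552 by limma). ASB2 stood at 122, 158 and 103 FPKM at day 0 and 4.6, 21.4 and 5.22 FPKM at day 6 (log2 fold change -3.78 ± 0.56, adjusted p = 0.00337 by limma). KCNJ4 went from 329, 351 and 197 FPKM to 15.7, 40.5 and 15.4 FPKM (log2 fold change -3.66 ± 0.50, adjusted p = 0.00232 by limma). The highest day 6 library of all these genes, replicate 2, was still below the lowest day 0 library. PLIN5 stood at 15.6, 12.8 and 18.4 FPKM at day 0 against 0.252, 0.764 and 0.131 FPKM at day 6, where every library was under 1 FPKM (log2 fold change -3.60 ± 0.39, adjusted p = 0.000743 by limma). The other decreases among the 10 largest of genes with a symbol were those of DAPL1, INHA, TESC, CLEC3B, FN3K and ACTC1. CLEC3B encodes tetranectin, a plasma and matrix protein that binds plasminogen, and fell from 195, 386 and 117 to 20.02, 33.04 and 11.1 FPKM (log2 fold change -3.34 ± 0.56, adjusted p = 0.00615 by limma). TESC, a calcium-binding protein, fell from 147, 303 and 130.3 to 12.8, 32.2 and 11.05 FPKM (limma adjusted p = 0.00679), DAPL1 from 40.1, 101 and 64.9 to 2.87, 8.43 and 1.87 FPKM (limma adjusted p = 0.00314). INHA, the alpha subunit of inhibin, varied more, with 46.4, 166 and 16.3 FPKM at day 0 and 2.25, 12.4 and 0.979 FPKM at day 6 (limma adjusted p = 0.0253), and so did FN3K, a kinase that removes sugars bound to proteins, with 88.9, 277 and 51.5 against 9.45, 19.5 and 5.9 FPKM (limma adjusted p = 0.0383). The direction of these 10 genes was kept in every alternative tried. Calls ended, with a limma adjusted p of 0.05 or more, without day 6 replicate 1 for TESC, INHA, FN3K and ACTC1 (0.0516 to 0.142), without day 6 replicate 3 for INHA and FN3K (0.106 to 0.133) and without day 0 replicate 1 for FN3K (0.0516). They also ended without day 0 replicate 2 for FN3K (0.0836) and without day 6 replicate 2 for FN3K (0.0598).

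Among the largest increases of genes with a symbol were those of MT1X, a metallothionein that binds zinc and copper, ADAMTS4, a protease that cleaves the proteoglycan aggrecan, SRXN1, an enzyme that restores oxidized peroxiredoxins, MMP9, ZFAND2A, CCL2, STC1, CXCL2 and LIPG. STC1, the secreted glycoprotein stanniocalcin, stood at 1.18, 0 and 2.23 FPKM at day 0 and 71.1, 103 and 61.7 FPKM at day 6 (log2 fold change 5.34 ± 0.57, adjusted p = 0.000743 by limma). LIPG, endothelial lipase, was under 1 FPKM in each day 0 library (0.571, 0 and 0.377) and at 43.03, 34.9 and 43.3 FPKM at day 6 (log2 fold change 4.99 ± 0.62, adjusted p = 0.00126 by limma). In both genes the day 6 libraries lay close to each other and far above day 0. The day 6 libraries disagreed more for MT1X and ZFAND2A. MT1X stood at 12.8, 13.5 and 4.63 FPKM at day 0 and at 538, 7804 and 578 FPKM at day 6, so replicate 2 was far above the other two. For ZFAND2A, which binds the proteasome under arsenite and heat stress, it was replicate 1 that stood out, with 603, 87.6 and 82.8 FPKM against 3.94, 1.36 and 2.62 FPKM at day 0. MT1X and ZFAND2A remained past the threshold without any 1 library, as did ADAMTS4, SRXN1, MMP9, CCL2, STC1 and LIPG. The call of CXCL2, a chemokine that attracts neutrophils, with 6.53, 0.509 and 9.23 FPKM at day 0 and 405, 138 and 65.2 FPKM at day 6 (limma adjusted p = 0.0085), ended without day 6 replicate 1 (adjusted p = 0.0592). MT1X may share reads with related metallothionein genes, since how such reads were counted is not stated. Genes without a symbol were not ranked here, although some changed more: the increase of 1 such gene, from a mean of 0.289 FPKM at day 0 to 623 FPKM at day 6 (log2 fold change 8.61), was the largest of all calls.

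**Figure D2:**
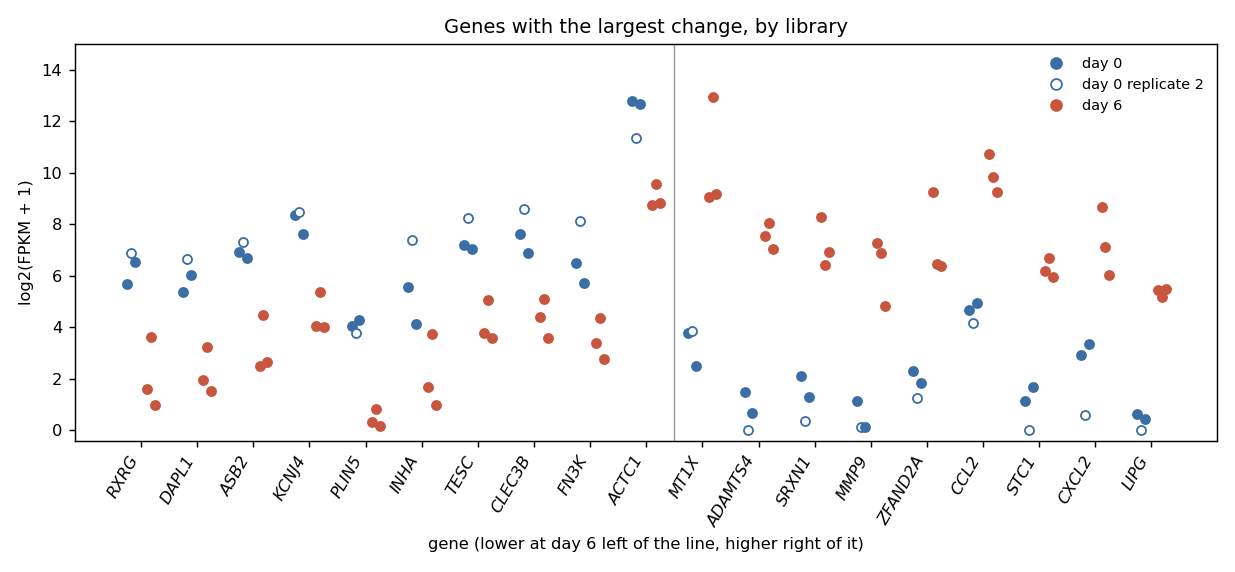
Level of the 10 lower genes with the largest change among genes with a symbol and 9 of the 10 higher ones, as log2(FPKM + 1) (y axis), 1 point per library, day 0 in blue with replicate 2 as an open circle and day 6 in red. For each gene the day 0 and day 6 points do not overlap, which was part of the rule that chose these genes.

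Most sarcomere transcripts had lower levels at day 6 but remained abundant, and a minority of the differences passed the test. Of 6 tested thick filament genes 0 rose and 3 fell, with a median log2 fold change of -2.28 (-3.43 with median ratio scaling). MYH6, the alpha myosin heavy chain, stood at 24753, 6878 and 19576 FPKM at day 0 and 2063, 5295 and 2096 FPKM at day 6 (log2 fold change -2.39 ± 0.61, adjusted p = 0.0299 by limma). MYBPC3, the myosin-binding protein C of heart muscle, stood at 1647, 437 and 1389.9 FPKM and then 130.2, 286 and 134 FPKM (log2 fold change -2.54 ± 0.63, adjusted p = 0.0268 by limma). MYOM2, an M-band protein that links myosin filaments, stood at 477, 156 and 457 FPKM and then 31.7, 109.8 and 30.4 FPKM (log2 fold change -2.74 ± 0.59, adjusted p = 0.0168 by limma). In each gene day 0 replicate 2 was far below the other day 0 libraries and day 6 replicate 2 far above the other day 6 libraries, but the groups did not overlap. MYL3, a ventricular light chain, and MYL4 did not pass (limma adjusted p = 0.0855 and 0.0763), nor did MYOM1 (0.129). MYL3 stood at 17318, 57731 and 15949 FPKM at day 0 and 4045, 8832 and 4895 FPKM at day 6, so day 0 replicate 2 was here the highest library of all. For thick filament genes the 4 checks gave 4, 4, 4 and 0 lower calls. Leaving out single libraries ended calls (limma adjusted p of 0.05 or more) without day 6 replicate 1 for all 3 called genes named here (0.104 to 0.141), without day 6 replicate 3 for all 3 called genes named here (0.0745 to 0.111) and without day 0 replicate 1 for MYH6 and MYBPC3 (0.0583 to 0.0634). Others were lost without day 0 replicate 3 for MYH6 and MYBPC3 (0.0625 to 0.0637).

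Of 15 thin filament and Z-disc genes, 2 fell and 2 rose, and the median change was -1.72 (-2.87 with median ratio scaling). The genes that fell were both actins. ACTC1, cardiac alpha actin, stood at 7126, 2639 and 6571 FPKM at day 0 and 427, 760.2 and 457 FPKM at day 6 (log2 fold change -3.23 ± 0.56, adjusted p = 0.00743 by limma). ACTA1, skeletal alpha actin, which is also counted among the fetal and load genes, stood at 17508, 18609 and 12609 FPKM and then 2845, 5251 and 3974 FPKM (log2 fold change -2.04 ± 0.60, adjusted p = 0.0459 by limma). The actins are near-identical in sequence and may share reads. TNNT2, cardiac troponin T, stood at 11788, 12888 and 11725 FPKM and then 2299.8, 5173 and 2222 FPKM and did not pass (log2 fold change -2.02 ± 0.71, limma adjusted p = 0.0773), nor did TNNC1, troponin C, at 14479, 78131 and 16747 FPKM and then 3919.9, 8581 and 4171 FPKM (limma adjusted p = 0.116). All day 6 libraries lay below all day 0 libraries for both troponins. The genes that rose do not build filaments: FLNC, filamin C, cross-links actin at the Z-disc, and BAG3 is a co-chaperone that clears damaged filamin. FLNC stood at 180.3, 41.2 and 101 FPKM at day 0 and 912, 634 and 1267 FPKM at day 6 (log2 fold change 3.29 ± 0.72, adjusted p = 0.0173 by limma). BAG3 stood at 38.9, 10.7 and 28.01 FPKM and then 104, 145 and 92.9 FPKM (log2 fold change 2.25 ± 0.54, adjusted p = 0.0239 by limma). For thin filament and Z-disc genes the 4 checks gave 0, 2, 2 and 0 higher, and 4, 3, 6 and 0 lower calls. With median ratio scaling the call ended for ACTA1, FLNC and BAG3 (limma adjusted p 0.0534 to 0.189). By single libraries, calls were lost (limma adjusted p of 0.05 or more) without day 6 replicate 1 for all 4 called genes named here (0.0525 to 0.182), without day 6 replicate 3 for ACTA1, FLNC and BAG3 (0.0682 to 0.128) and without day 6 replicate 2 for ACTA1 and BAG3 (0.0724 to 0.0751). Further calls ended without day 0 replicate 1 for ACTA1 (0.0737), without day 0 replicate 2 for ACTA1 (0.0716) and without day 0 replicate 3 for ACTA1 (0.0608).

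Genes of excitation differed unevenly. Of 5 ion channel genes 3 fell and 0 rose, with a median of -2.26 (-3.40 with median ratio scaling): beside KCNJ4 these were KCNIP2, a subunit of the transient outward potassium channel, and KCNE1, a subunit of the slow delayed rectifier. KCNIP2 stood at 71.98, 53.6 and 60.7 FPKM at day 0 and 4.46, 19.3 and 2.11 FPKM at day 6 (log2 fold change -3.16 ± 0.65, adjusted p = 0.0148 by limma). KCNE1 stood at 217, 382 and 285 FPKM and then 42.6, 31.4 and 153 FPKM (log2 fold change -2.26 ± 0.63, adjusted p = 0.0399 by limma), where replicate 3 was well above the other day 6 libraries. Of 8 calcium handling genes HRC, a calcium-binding protein of the sarcoplasmic reticulum, fell (-2.35, limma adjusted p = 0.0349) and none rose, with a median of -1.26 (-2.16). RYR2, the calcium release channel, stood at 102, 1.02 and 99.9 FPKM at day 0 and 12.05, 19.6 and 32.02 FPKM at day 6 (limma adjusted p = 0.804), and the groups overlapped through day 0 replicate 2. Without that library RYR2 passed as lower (log2 fold change -2.30, limma adjusted p = 0.0178). Of 10 genes of the intercalated disc, where muscle cells join, 0 passed in either direction. Their median of 0.47 lay below that of all genes and turned to -0.47 with median ratio scaling. GJA1, the gap junction protein connexin 43, stood at 158, 14.7 and 193 FPKM and then 117, 61.2 and 182 FPKM (limma adjusted p = 0.689), and the groups overlapped. For ion channels the 4 checks gave 4, 5, 3 and 1 lower calls. For calcium handling the 4 checks gave 4, 4, 6 and 0 lower calls. For the intercalated disc none of the 4 checks gave a call. The threshold was missed (limma adjusted p of 0.05 or more) without day 6 replicate 1 for KCNIP2, KCNE1 and HRC (0.0889 to 0.165), without day 6 replicate 3 for KCNIP2 and HRC (0.0668 to 0.125) and without day 0 replicate 3 for KCNE1 and HRC (0.0614 to 0.0675). The same held without day 6 replicate 2 for KCNE1 and HRC (0.0541 to 0.116), without day 0 replicate 2 for KCNE1 (0.068) and without day 0 replicate 1 for HRC (0.0695).

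Of 13 cardiac transcription factors only RXRG passed with the FPKM as deposited, and the median was -0.57 (-1.36 with median ratio scaling). Of 9 genes known from fetal or overloaded heart, 1 rose and 2 fell. UCHL1, a deubiquitinating enzyme, rose from 2.97, 7.36 and 3.77 FPKM to 46.4, 21.4 and 20.1 FPKM (log2 fold change 2.38 ± 0.49, adjusted p = 0.0141 by limma). CCK, the peptide cholecystokinin, fell from 632, 2479 and 1400.0 FPKM to 58.1, 416 and 112 FPKM (log2 fold change -3.21 ± 0.67, adjusted p = 0.0151 by limma). Day 6 replicate 2 was again the highest of its group for CCK, and the groups did not overlap for either gene. NPPB, the natriuretic peptide released by stretched heart muscle, stood at 135, 281 and 138 FPKM and then 31.5, 65.7 and 51.1 FPKM, all day 6 libraries below all day 0 libraries, and did not pass (limma adjusted p = 0.0825). For transcription factors the 4 checks gave 3, 7, 4 and 1 lower calls. For fetal and load genes the 4 checks gave 0, 0, 1 and 0 higher, and 2, 2, 2 and 0 lower calls. Median ratio scaling ended the call of UCHL1 (limma adjusted p 0.243). Calls ended, with a limma adjusted p of 0.05 or more, without day 6 replicate 1 for UCHL1 and CCK (0.0909 to 0.0945) and without day 6 replicate 3 for CCK (0.0597).

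Transcripts of oxidative metabolism were on the lower side. Of 19 fatty acid oxidation genes 2 fell and 1 rose, with a median of -0.69 (-1.78 with median ratio scaling). CPT1B, the muscle form of the enzyme that admits fatty acids to mitochondria, fell from 234, 90.9 and 222 FPKM to 17.1, 51.8 and 20.3 FPKM (log2 fold change -2.63 ± 0.54, adjusted p = 0.0141 by limma), and the other gene that fell was PLIN5, described above. PDK4, the kinase that blocks pyruvate oxidation, rose from 2.14, 0.0891 and 18.2 FPKM to 38.96, 31.9 and 113 FPKM (log2 fold change 3.72 ± 1.04, adjusted p = 0.0405 by limma), although day 0 ranged widely. Of 19 genes of the tricarboxylic acid cycle, SDHA and SDHC, subunits of succinate dehydrogenase, fell (log2 fold changes -1.54 and -1.63, limma adjusted p = 0.0289 and 0.0271) and none rose, with a median of -0.87 (-2.02). The list of 23 nuclear genes of the respiratory chain also held a mitochondrial carrier, SLC25A4. Of these 23 genes 4 fell and none rose, with a median of -1.30 (-2.45). For 17 of the 23 every day 6 library lay below every day 0 library, beside 6.76% of all tested genes. SLC25A4, the ADP/ATP carrier of muscle mitochondria, fell from 2964, 4769 and 2835 FPKM to 354, 1001 and 411 FPKM (log2 fold change -2.70 ± 0.57, adjusted p = 0.0159 by limma). NDUFV1, a complex I subunit, fell from 481, 1270.4 and 377 FPKM to 147, 214 and 166 FPKM (log2 fold change -1.82 ± 0.49, adjusted p = 0.0362 by limma), and NDUFA9 and NDUFA8, also of complex I, changed by -1.52 and -1.73 (limma adjusted p = 0.0306 and 0.0384). For fatty acid oxidation the 4 checks gave 0, 1, 0 and 0 higher, and 8, 6, 7 and 1 lower calls. For the tricarboxylic acid cycle the 4 checks gave 8, 4, 3 and 0 lower calls. For the respiratory chain the 4 checks gave 6, 11, 4 and 0 lower calls. After median ratio scaling, PDK4 and NDUFA8 no longer passed (limma adjusted p 0.0516 to 0.0685). PLIN5 kept its call without any 1 library. For the 8 other called genes named here, leaving out single libraries ended calls (limma adjusted p of 0.05 or more). All 8 were lost without day 6 replicate 1 (0.0926 to 0.159) and without day 6 replicate 3 (0.0612 to 0.144). PDK4, NDUFV1, NDUFA9 and NDUFA8 were lost without day 6 replicate 2 (0.0618 to 0.0719). Others were lost without day 0 replicate 3 for SDHA, SDHC, NDUFA9 and NDUFA8 (0.0528 to 0.0608), without day 0 replicate 2 for PDK4, NDUFV1 and NDUFA8 (0.0615 to 0.088) and without day 0 replicate 1 for PDK4 and SDHA (0.059 to 0.0667).

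No transcript encoded in mitochondrial DNA passed the test. Of 12 tested, 0 passed in either direction, and for 0 of them did the day 0 and day 6 libraries separate. Among genes with a symbol they held 8 of the 10 highest levels at day 6: COX1 (35838 ± 13562 FPKM, mean ± SD, n = 3), ATP6 (33451 ± 10683 FPKM), COX3 (32284 ± 5010.1 FPKM), COX2 (28429 ± 5951 FPKM), ND3 (9415 ± 2627 FPKM), ND4 (7715 ± 585 FPKM), CYTB (7496 ± 1857 FPKM) and ND2 (5480.2 ± 724 FPKM). Neighbours among the first 4 overlapped, as did ND3, ND4 and CYTB, and every COX2 value was above every ND3 value. The others of these 10 were MYL3 (5924 ± 2554 FPKM) and TNNC1 (5558 ± 2622 FPKM). COX1, the catalytic subunit of complex IV, stood at 47161, 7489.8 and 55584 FPKM at day 0 and 23610.4, 50425 and 33479 FPKM at day 6. The low library was day 0 replicate 2, where 4.53% of reads came from mitochondrial genes, against 14.51% to 22.1% in the other 5 libraries. The list median was 0.56 as deposited and -0.60 with median ratio scaling, so no direction is given.

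Glycolytic genes moved both ways. Of 19 tested 4 rose and 3 fell, with a median of 0.38 (-0.70 with median ratio scaling). Those that rose were HK2, PFKFB3, ENO1 and LDHA. HK2, a hexokinase, rose from 2.95, 0 and 3.69 FPKM to 58.9, 23.5 and 16.2 FPKM (log2 fold change 3.47 ± 0.69, adjusted p = 0.0123 by limma). PFKFB3, which makes the activator of phosphofructokinase, rose from 2.34, 0 and 1.25 FPKM to 22.8, 24 and 12.4 FPKM (log2 fold change 3.35 ± 0.70, adjusted p = 0.0157 by limma). ENO1, the common enolase, rose from 98.5, 119.8 and 72.8 FPKM to 721, 696 and 551 FPKM (log2 fold change 2.76 ± 0.40, adjusted p = 0.00282 by limma). Those that fell are known from muscle: PGAM2, a phosphoglycerate mutase (-2.61, limma adjusted p = 0.0411), ENO3, the muscle enolase (-2.55, 0.0449), and SLC2A4, the glucose transporter that insulin regulates (-2.00, 0.0308). ENO3 stood at 2689, 8587 and 2746 FPKM at day 0 and 528, 1082 and 551 FPKM at day 6, so ENO3 was above ENO1 in all day 0 libraries but not in all day 6 libraries. Of 6 genes of phosphate and oxygen buffering, CKB, the brain form of creatine kinase (2.05, limma adjusted p = 0.0271), and the creatine transporter SLC6A8 (1.90, 0.0233) rose and none fell. For glycolysis the 4 checks gave 2, 4, 3 and 1 higher, and 3, 4, 2 and 0 lower calls. For phosphate and oxygen buffering the 4 checks gave 0, 1, 2 and 0 higher, and 1, 1, 1 and 0 lower calls. Rescaled by median ratios, ENO1, LDHA, ENO3, CKB and SLC6A8 missed the threshold (limma adjusted p 0.056 to 0.46). By single libraries, calls were lost (limma adjusted p of 0.05 or more) without day 6 replicate 1 for all 9 called genes named here but ENO1 (0.0865 to 0.179), without day 6 replicate 2 for PFKFB3, LDHA, PGAM2, ENO3, CKB and SLC6A8 (0.0503 to 0.0847) and without day 6 replicate 3 for LDHA, PGAM2, ENO3, SLC2A4, CKB and SLC6A8 (0.0538 to 0.139). Further calls ended without day 0 replicate 3 for PGAM2, ENO3, SLC2A4, CKB and SLC6A8 (0.0528 to 0.0658), without day 0 replicate 2 for LDHA, PGAM2 and ENO3 (0.0874 to 0.0978) and without day 0 replicate 1 for SLC2A4 (0.0673).

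Many genes of ER folding and transport were higher at day 6, from chaperones to the transport vesicles that leave the ER. Of 19 genes of ER chaperones and the unfolded protein response 14 rose and none fell, with a median of 2.60 (1.61 with median ratio scaling). HYOU1, a large ER chaperone, stood at 16.5, 2.5 and 8.55 FPKM at day 0 and 177, 74.9 and 107 FPKM at day 6 (log2 fold change 3.76 ± 0.67, adjusted p = 0.00859 by limma). PDIA6, a disulfide isomerase, stood at 80.4, 26.9 and 65.8 FPKM and then 610.3, 236 and 607 FPKM (log2 fold change 3.06 ± 0.56, adjusted p = 0.00899 by limma). HSPA5, the main ER chaperone, stood at 114, 11.2 and 124 FPKM and then 3528, 708 and 1359 FPKM (limma adjusted p = 0.00865). For all of them day 6 replicate 1 was the highest library and replicate 2 the lowest of day 6, and the groups did not overlap. Of 35 genes of protein translocation and vesicle transport 11 rose and none fell (median 1.97, 1.02 with median ratio scaling). SEC61A1, the channel through which proteins enter the ER, rose from 9.03, 1.46 and 5.56 FPKM to 44.9, 42.2 and 45.2 FPKM (log2 fold change 3.05 ± 0.61, adjusted p = 0.0132 by limma). SEC23B, a coat protein of vesicles leaving the ER, rose from 5.07, 0.789 and 4.61 FPKM to 40.8, 26.1 and 27.8 FPKM (log2 fold change 3.02 ± 0.59, adjusted p = 0.012 by limma). SSR1, a subunit of the complex beside the translocation channel, rose from 52.4, 40.96 and 36.7 FPKM to 287, 162 and 308 FPKM (log2 fold change 2.48 ± 0.41, adjusted p = 0.00577 by limma). For ER genes the 4 checks gave 4, 11, 12 and 0 higher calls. For transport genes the 4 checks gave 3, 10, 7 and 1 higher calls. With median ratio scaling the call ended for PDIA6 and SSR1 (limma adjusted p 0.0568 to 0.181). The threshold was missed (limma adjusted p of 0.05 or more) without day 6 replicate 1 for all 6 called genes named here but SSR1 (0.0623 to 0.0801).

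Many genes of amino acid supply were also higher at day 6. Of 18 targets of ATF4, the transcription factor of the integrated stress response, 12 rose and none fell (median 2.00, 1.18 with median ratio scaling). SESN2, an inhibitor of mTORC1 signalling, rose from 0.765, 0.458 and 0.315 FPKM to 41.99, 22.5 and 14.3 FPKM (log2 fold change 4.05 ± 0.68, adjusted p = 0.00615 by limma). SLC3A2, the heavy chain of amino acid transporters, rose from 24.5, 26.1 and 11.8 FPKM to 224, 119 and 128 FPKM (log2 fold change 2.88 ± 0.51, adjusted p = 0.0085 by limma). ASNS, asparagine synthetase, rose from 3.92, 5.61 and 4.95 FPKM to 62.7, 36.6 and 52.5 FPKM (log2 fold change 3.12 ± 0.45, adjusted p = 0.00281 by limma), a gene whose libraries agreed within each group. Of 17 tRNA synthetases, the enzymes that load amino acids onto tRNA, 9 rose and none fell (median 2.22, 1.34). CARS1, GARS1 and SARS1, for cysteine, glycine and serine, had the smallest p-values. CARS1 rose from 8.37, 8.81 and 4.4 FPKM to 87.4, 41.2 and 64.3 FPKM (log2 fold change 2.98 ± 0.46, adjusted p = 0.00419 by limma), and GARS1 from 32.04, 11.2 and 21.1 to 186, 103 and 137 FPKM (limma adjusted p = 0.00899). Of 15 ribosomal protein genes 0 passed in either direction, and the median change was 0.00, below that of all genes, and -1.15 with median ratio scaling. For ATF4 targets the 4 checks gave 6, 8, 11 and 1 higher calls. For tRNA synthetases the 4 checks gave 1, 6, 8 and 1 higher calls. For ribosomal proteins the 4 checks gave 0, 1, 0 and 0 higher calls. Median ratio scaling ended the call of SLC3A2, CARS1, GARS1 and SARS1 (limma adjusted p 0.0595 to 0.178). Calls ended, with a limma adjusted p of 0.05 or more, without day 6 replicate 1 for SESN2, SLC3A2, GARS1 and SARS1 (0.0512 to 0.0699).

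In the cytosol, 8 of 20 heat shock genes rose and none fell (median 1.66, 0.53 with median ratio scaling). HSPH1, a nucleotide exchange factor of HSP70, rose from 6.61, 0.507 and 8.17 FPKM to 53.02, 42.9 and 36.7 FPKM (log2 fold change 3.24 ± 0.61, adjusted p = 0.0099 by limma). HSPA1L varied most, with 140.3, 21.9 and 83.5 FPKM at day 0 and 720.4, 3062 and 185 FPKM at day 6 (log2 fold change 3.52 ± 0.95, adjusted p = 0.0354 by limma). It may share reads with related HSP70 genes. Of 19 proteasome subunits 5 rose and none fell, with a median of 1.42 (0.36). PSMD11 rose from 46.4, 5.93 and 33.99 FPKM to 146, 83.7 and 119.5 FPKM (log2 fold change 2.34 ± 0.62, adjusted p = 0.0338 by limma), and PSMD3 and PSMA5 changed by 1.52 and 1.74 (limma adjusted p = 0.0336 and 0.0379). Of 29 autophagy and lysosome genes 3 rose and none fell, beside 9.55% of all tested genes called higher. Their median of 0.80 was close to that of all genes. CTSL, the lysosomal protease cathepsin L, rose from 0.532, 0.176 and 1.08 FPKM to 27.8, 14.1 and 21.4 FPKM (log2 fold change 3.78 ± 0.62, adjusted p = 0.00562 by limma). CTSB, cathepsin B, and SQSTM1, the autophagy receptor p62, rose by 1.65 and 1.63 (limma adjusted p = 0.0253 and 0.0239). For heat shock genes the 4 checks gave 1, 6, 2 and 0 higher calls. For the proteasome the 4 checks gave 0, 4, 2 and 0 higher calls. For autophagy and lysosome the 4 checks gave 1, 3, 3 and 1 higher calls. After median ratio scaling, HSPA1L, PSMD11, PSMD3, PSMA5, CTSB and SQSTM1 no longer passed (limma adjusted p 0.107 to 0.725). Leaving out single libraries ended calls (limma adjusted p of 0.05 or more) without day 6 replicate 1 for all 8 called genes named here but CTSL (0.0707 to 0.166), without day 6 replicate 2 for all 8 called genes named here but HSPH1 and CTSL (0.0586 to 0.105) and without day 6 replicate 3 for PSMD11, PSMD3, PSMA5, CTSB and SQSTM1 (0.0544 to 0.121). Others were lost without day 0 replicate 3 for HSPA1L, PSMD3, CTSB and SQSTM1 (0.0521 to 0.0762) and without day 0 replicate 2 for HSPA1L and PSMA5 (0.0704 to 0.0759).

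**Figure D3:**
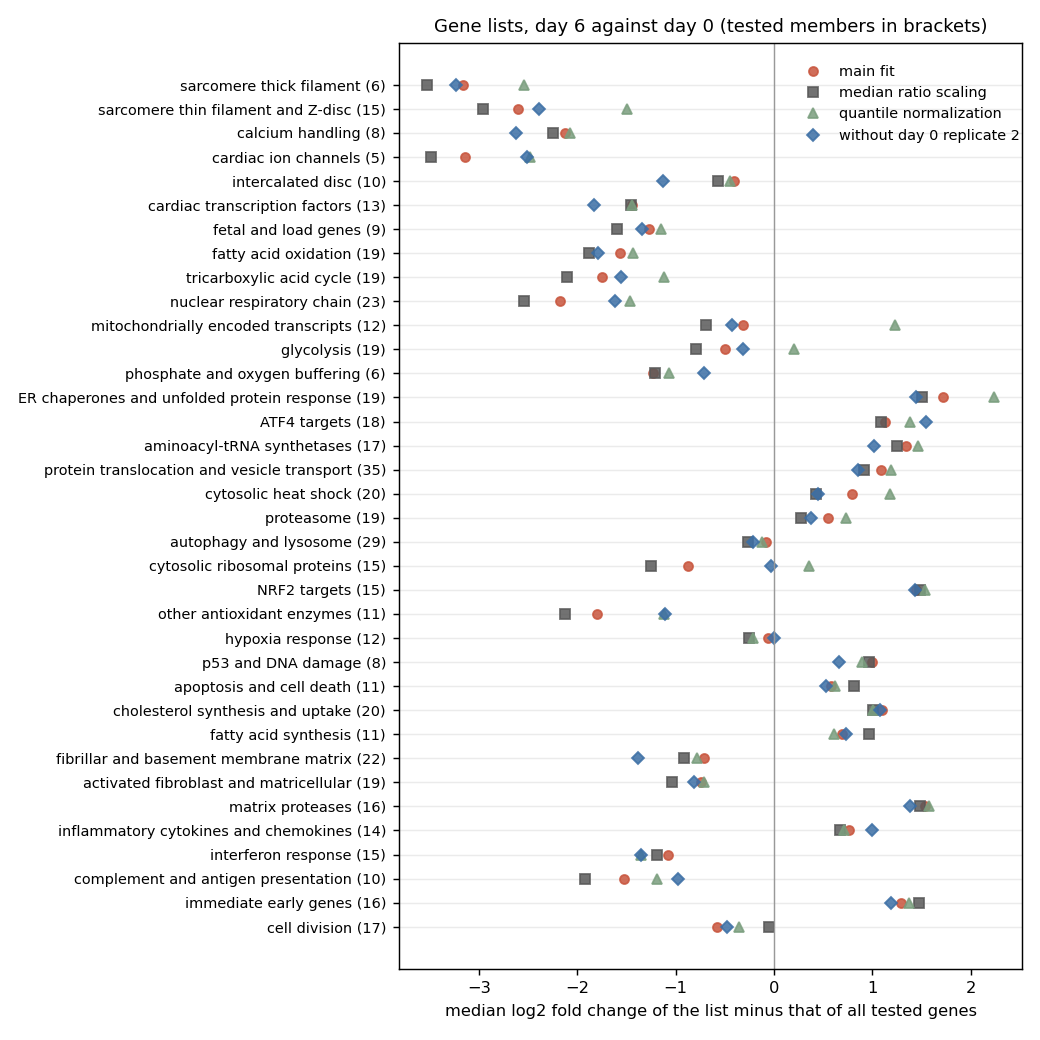
Median log2 fold change of the tested members of each gene list, day 6 against day 0, minus the median of all tested genes (x axis), for the deposited FPKM (circles), median ratio scaling (squares), quantile normalization (triangles) and the fit without day 0 replicate 2 (diamonds). Thick filament, thin filament, calcium and ion channel lists lie below -1 and the ER, ATF4, tRNA synthetase and NRF2 lists at 1 or above in each setting, while glycolysis, mitochondrial transcripts and ribosomal proteins change sides.

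NRF2 targets, genes of oxidant defence, were mostly called higher at day 6 as deposited, and a minority of them with median ratio scaling. Of 15 NRF2 targets 11 rose and none fell (median 2.33, 1.59 with median ratio scaling). SRXN1 rose from 3.38, 0.282 and 1.47 FPKM to 314, 85.03 and 122 FPKM (log2 fold change 5.96 ± 0.58, adjusted p = 0.000363 by limma). GCLC, which begins glutathione synthesis, rose from 2.79, 0.384 and 2.46 FPKM to 48.9, 18.3 and 26.1 FPKM (log2 fold change 3.50 ± 0.57, adjusted p = 0.00552 by limma). The groups did not overlap for either of them. Of 11 other antioxidant enzymes, SOD3, the extracellular superoxide dismutase, rose (2.42, limma adjusted p = 0.0244) and MGST3, a microsomal glutathione transferase, fell (-1.89, 0.039), with a median of -0.93 (-2.03). Of 12 hypoxia response genes ADM, the vasodilator peptide adrenomedullin, and NDRG1 rose (2.78 and 2.67, limma adjusted p = 0.0318 and 0.0296). The median of the hypoxia list, 0.82, was close to that of all genes. For NRF2 targets the 4 checks gave 4, 10, 9 and 4 higher calls. For other antioxidant enzymes the 4 checks gave 0, 0, 1 and 0 higher, and 3, 4, 1 and 0 lower calls. For the hypoxia response the 4 checks gave 0 higher, and 0, 1, 0 and 0 lower calls. Rescaled by median ratios, SOD3, ADM and NDRG1 missed the threshold (limma adjusted p 0.0935 to 0.275). By single libraries, calls were lost (limma adjusted p of 0.05 or more) without day 6 replicate 1 for SOD3, MGST3, ADM and NDRG1 (0.109 to 0.162), without day 6 replicate 2 for SOD3, ADM and NDRG1 (0.0554 to 0.1) and without day 6 replicate 3 for SOD3, MGST3 and NDRG1 (0.0668 to 0.143). Further calls ended without day 0 replicate 2 for MGST3, ADM and NDRG1 (0.053 to 0.0754) and without day 0 replicate 3 for SOD3 and MGST3 (0.0544 to 0.0589).

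Several genes that make or take up lipids were higher at day 6. Of 20 genes of cholesterol synthesis and uptake 9 rose and 1, TM7SF2 (-1.80, limma adjusted p = 0.0382), fell (median 1.98, 1.11 with median ratio scaling). ACAT2, an acetyl-CoA acetyltransferase of the cytosol, rose from 1.58, 1.1 and 1.15 FPKM to 25.1, 31.7 and 14.99 FPKM (log2 fold change 3.40 ± 0.53, adjusted p = 0.0043 by limma). INSIG1, the sterol-controlled anchor of SREBP in the ER, rose from 6.28, 1.12 and 4.62 FPKM to 23.3, 18.9 and 27.4 FPKM (log2 fold change 2.44 ± 0.52, adjusted p = 0.0165 by limma), and HSD17B7, a sterol synthesis enzyme, from 2.82, 0.651 and 3.12 to 18.6, 12.8 and 22.98 FPKM (limma adjusted p = 0.0137). Of 11 genes of fatty acid synthesis, SCD, FASN and ACLY rose and none fell (median 1.57, 1.06). SCD, the enzyme that desaturates stearate, rose from 5.87, 0.504 and 1.05 FPKM to 40.3, 27.1 and 97.8 FPKM (log2 fold change 4.14 ± 0.68, adjusted p = 0.00576 by limma). FASN, fatty acid synthase, rose from 12.2, 1.48 and 3.45 FPKM to 42.8, 66.8 and 71.7 FPKM (log2 fold change 3.51 ± 0.78, adjusted p = 0.0185 by limma), and ACLY, which makes cytosolic acetyl-CoA, from 9.84, 0.438 and 5.99 to 38.2, 43.9 and 50.3 FPKM (limma adjusted p = 0.0263). Day 6 replicate 3 was the highest library for all these fatty acid synthesis genes, and none overlapped with day 0. For cholesterol genes the 4 checks gave 5, 7, 6 and 1 higher, and 1, 2, 0 and 0 lower calls. For fatty acid synthesis the 4 checks gave 3, 3, 3 and 1 higher calls. The threshold was missed (limma adjusted p of 0.05 or more) without day 6 replicate 1 for all 7 called genes named here but ACAT2 and SCD (0.0774 to 0.162), without day 6 replicate 3 for all 7 called genes named here but ACAT2 and SCD (0.0633 to 0.139) and without day 6 replicate 2 for FASN, ACLY and TM7SF2 (0.0557 to 0.0672). The same held without day 0 replicate 2 for TM7SF2 (0.0651) and without day 0 replicate 3 for TM7SF2 (0.0544).

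Around the muscle cells, several proteases and an inhibitor of them were higher at day 6. No gene of the fibrillar and basement membrane matrix list was called with the FPKM as deposited. Of 16 genes of matrix proteolysis 9 rose and none fell (median 2.42, 1.59 with median ratio scaling). ADAMTS4 rose from 1.83, 0 and 0.609 FPKM to 188, 264 and 131 FPKM (log2 fold change 6.82 ± 0.74, adjusted p = 0.000743 by limma), MMP9, gelatinase B, from 1.23, 0.0945 and 0.097 to 154, 116 and 27.2 FPKM (limma adjusted p = 0.00196), and PLAU, urokinase, from 8.24, 1.55 and 5.49 to 103, 104 and 68.7 FPKM (limma adjusted p = 0.00214). TIMP1, the inhibitor of metalloproteases, rose from 42.8, 82.2 and 31.4 FPKM to 936, 532 and 620.0 FPKM (log2 fold change 3.79 ± 0.53, adjusted p = 0.00259 by limma). Both the proteases named here and TIMP1 were thus high in every day 6 library. Of 22 genes of fibrillar and basement membrane matrix 0 passed in either direction, with a median of 0.17 (-0.83). COL3A1, a fibrillar collagen, stood at 1146, 92.5 and 934 FPKM at day 0 and 238, 226 and 116 FPKM at day 6 (limma adjusted p = 0.275), and the groups overlapped through day 0 replicate 2. Leaving that library out, COL3A1 passed as lower (log2 fold change -2.48, limma adjusted p = 0.0309). Of 19 genes of activated fibroblasts and matricellular proteins 4 rose and 1 fell (median 0.14, -0.94). Among those that rose were TIMP1, TNC, a matrix protein of wounds (3.48, limma adjusted p = 0.0352), and TGFB1, from 37.7, 30.7 and 16.2 to 215, 104 and 133 FPKM (log2 fold change 2.39 ± 0.54, adjusted p = 0.0202 by limma). TAGLN, an actin-binding protein of smooth muscle, fell from 174, 297 and 92.9 FPKM to 20.96, 87.5 and 12.8 FPKM (log2 fold change -2.50 ± 0.64, adjusted p = 0.0306 by limma). POSTN, the matricellular protein periostin, stood at 17.5, 1.17 and 41.7 FPKM and then 16.1, 6.03 and 12.2 FPKM (limma adjusted p = 0.98), and VIM, vimentin, at 458, 382 and 286 and then 508, 931 and 354 FPKM (limma adjusted p = 0.492). For matrix proteolysis the 4 checks gave 4, 7, 8 and 5 higher, and 1, 1, 0 and 0 lower calls. For fibrillar and basement membrane matrix the 4 checks gave 1, 1, 2 and 0 lower calls. For activated fibroblast genes the 4 checks gave 2, 3, 3 and 2 higher, and 2, 3, 0 and 0 lower calls. With median ratio scaling the call ended for TIMP1 and TGFB1 (limma adjusted p 0.0709 to 0.288). Calls ended, with a limma adjusted p of 0.05 or more, without day 6 replicate 1 for TNC, TGFB1 and TAGLN (0.114 to 0.141), without day 6 replicate 3 for TNC, TGFB1 and TAGLN (0.0668 to 0.127) and without day 0 replicate 2 for TNC and TAGLN (0.0574 to 0.0613). They also ended without day 0 replicate 3 for TNC and TGFB1 (0.0539 to 0.0633), without day 6 replicate 2 for TNC (0.0792) and without day 0 replicate 1 for TAGLN (0.0507).

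Several inflammatory and immediate early genes were higher at day 6, and no interferon response gene passed with the FPKM as deposited. Of 14 inflammatory cytokines and chemokines 5 rose and none fell (median 1.64, 0.76 with median ratio scaling). CCL2, which attracts monocytes, rose from 24.6, 16.9 and 29.4 FPKM to 1686, 909.5 and 611 FPKM (log2 fold change 5.34 ± 0.50, adjusted p = 0.000303 by limma), and PTGS2, the inducible cyclooxygenase, from 0.452, 0 and 0.182 to 40.9, 16.6 and 7.72 FPKM (log2 fold change 3.96 ± 0.57, adjusted p = 0.00282 by limma). In both, replicate 1 was the highest day 6 library and replicate 3 the lowest. Of 15 interferon response genes and 10 genes of complement and antigen presentation 0 passed in either direction (medians -0.20 and -0.65, below that of all genes). Of 16 immediate early genes 7 rose and none fell (median 2.17, 1.58). FOSL1, a partner of JUN in the factor AP-1, rose from 0.707, 0.446 and 0.206 FPKM to 32.6, 39.4 and 12.7 FPKM (log2 fold change 4.21 ± 0.49, adjusted p = 0.00106 by limma), JUNB, another AP-1 subunit, from 51.5, 11.1 and 26.4 to 264, 308 and 228 FPKM (limma adjusted p = 0.00318), and MYC from 17.1, 2.15 and 7.42 to 101, 138 and 87.2 FPKM (limma adjusted p = 0.00387). Of 17 cell division genes 4 rose and none fell, with a median of 0.30, below that of all genes. They were MCM2, MCM3 and MCM4, subunits of the helicase that opens DNA for replication, and CCNE1, the cyclin of entry into DNA synthesis. MCM3 rose from 3.71, 1.46 and 1.83 FPKM to 16.8, 16.3 and 12.6 FPKM (log2 fold change 2.33 ± 0.55, adjusted p = 0.0232 by limma), and CCNE1 from 2.04, 0.45 and 1.73 to 7.78, 18.7 and 6.82 FPKM (log2 fold change 2.27 ± 0.58, adjusted p = 0.0308 by limma). Of 8 p53 and DNA damage genes GADD45B and PLK3 rose (3.93 and 2.79, limma adjusted p = 0.00899 and 0.012), and of 11 cell death genes PMAIP1, a BCL2 antagonist, and RIPK1, a kinase of death receptors, rose (2.39 and 2.47, 0.0176 and 0.0225). For cytokines and chemokines the 4 checks gave 4, 4, 4 and 2 higher calls. For immediate early genes the 4 checks gave 5, 6, 6 and 4 higher calls. For cell division the 4 checks gave 0, 0, 1 and 0 higher calls. For the interferon response the 4 checks gave 1, 4, 1 and 0 lower calls. For complement and antigen presentation the 4 checks gave 2, 2, 1 and 0 lower calls. For p53 and DNA damage the 4 checks gave 1, 2, 2 and 1 higher, and 0, 1, 0 and 0 lower calls. For cell death the 4 checks gave 1, 2, 3 and 0 higher calls. Median ratio scaling ended the call of MCM2, MCM3, MCM4, CCNE1, GADD45B and RIPK1 (limma adjusted p 0.0661 to 0.216). Leaving out single libraries ended calls (limma adjusted p of 0.05 or more) without day 6 replicate 1 for MCM2, MCM3, MCM4, CCNE1, PLK3, PMAIP1 and RIPK1 (0.0707 to 0.154), without day 6 replicate 2 for MCM2, MCM3, MCM4, CCNE1, PMAIP1 and RIPK1 (0.0514 to 0.0978) and without day 6 replicate 3 for MCM2, MCM3, MCM4, CCNE1 and RIPK1 (0.061 to 0.0922). Others were lost without day 0 replicate 3 for MCM2, MCM3, MCM4 and CCNE1 (0.0534 to 0.0675) and without day 0 replicate 2 for MCM2, MCM4 and CCNE1 (0.0505 to 0.058).

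Markers of the cell types in a slice differed in direction. Of 11 endothelial markers 3 rose and none fell, with a median of 1.85 (0.73 with median ratio scaling), and their summed level was 210.1 to 791 FPKM at day 0 and 1098 to 2574 FPKM at day 6. PECAM1, an adhesion molecule of endothelial junctions, rose from 422, 39.3 and 165 FPKM to 1151, 1794 and 728 FPKM (log2 fold change 3.02 ± 0.82, adjusted p = 0.0369 by limma). ERG, an endothelial transcription factor, rose from 12.9, 0.211 and 6.79 FPKM to 34.02, 41.2 and 23.2 FPKM (log2 fold change 2.70 ± 0.76, adjusted p = 0.0402 by limma), and ECSCR from 17.6, 13.6 and 9.59 to 49.2, 81.5 and 31.3 FPKM (log2 fold change 1.85 ± 0.46, adjusted p = 0.0275 by limma). Of 9 cardiomyocyte markers MYH6 and ACTC1 fell and none rose (median -2.02, -3.18). For 8 of the 9 all day 6 libraries lay below all day 0 libraries, beside 6.76% of all tested genes. Of 7 fibroblast markers PI16 fell (-2.89, limma adjusted p = 0.0259) and none rose. The summed level of the fibroblast markers was 381 to 2018 FPKM at day 0 and 303 to 623 FPKM at day 6. Of 12 mural cell markers TAGLN fell and none rose, with a summed level of 2276 to 7384 FPKM and then 1932 to 2184 FPKM. Of 11 macrophage markers 0 passed in either direction, with a summed level of 264 to 922 FPKM and then 185 to 394 FPKM. Markers of neutrophils, mast cells, lymphocytes and erythroid cells were low. Of 11 neutrophil and mast cell markers only 2 were tested. They summed to 0.495 to 3.89 FPKM at day 0 and 19.8 to 38.1 FPKM at day 6. KIT, a receptor of mast cells that endothelial cells also carry, was 1 of these 2 and rose (3.13, limma adjusted p = 0.0206). Its mean was 2.4 FPKM at day 0 and 26.6 FPKM at day 6. Lymphocyte markers summed to 28.7 to 41.3 FPKM and 19.7 to 36.4 FPKM, and erythroid markers to 12.8 to 40.6 FPKM and 4.29 to 15.96 FPKM. Among the lymphocyte markers CD2, an adhesion molecule of T cells, fell (-1.53, limma adjusted p = 0.043). Of the adipocyte, Schwann cell and mesothelial markers (3, 4 and 2 tested) 0 passed in either direction. Their shares of all FPKM did not overlap between the groups. Adipocyte markers held 0.0166, 0.0363 and 0.0149% in day 0 replicates 1 to 3 and 0.00721, 0.00698 and 0.0041% at day 6. Schwann cell markers held 0.00062, 6.56e-05 and 0.000506% and then 0.00141, 0.00176 and 0.000973%. Mesothelial and epithelial markers held 0.00192, 0.00149 and 0.000756% and then 0.0152, 0.00256 and 0.0313%. The part of cell composition in the changes above was not tested. For endothelial markers the 4 checks gave 0, 2, 1 and 0 higher calls. For cardiomyocyte markers the 4 checks gave 4, 1, 5 and 0 lower calls. For fibroblast markers the 4 checks gave 2, 2, 3 and 0 lower calls. For mural cell markers the 4 checks gave 3, 3, 0 and 0 lower calls. For macrophage markers the 4 checks gave 0, 1, 0 and 0 lower calls. After median ratio scaling, PECAM1, ERG and ECSCR no longer passed (limma adjusted p 0.0829 to 0.462). The losses by single libraries of MYH6, ACTC1 and TAGLN are given above. For PECAM1, ERG, ECSCR, PI16, KIT and CD2, calls were lost (limma adjusted p of 0.05 or more) without day 6 replicate 1 for all 6 (0.106 to 0.186). They were also lost without day 0 replicate 3 for all 6 but KIT (0.0525 to 0.0917) and without day 6 replicate 2 for PECAM1, ERG, ECSCR and KIT (0.0636 to 0.103). Further calls ended without day 6 replicate 3 for PECAM1, ERG, PI16 and CD2 (0.0768 to 0.15), without day 0 replicate 2 for PECAM1, ERG and CD2 (0.0516 to 0.0764) and without day 0 replicate 1 for PI16 (0.0538).

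The 3 day 6 libraries were not alike among themselves. Replicate 2 was the highest day 6 library for 5 of 6 thick filament genes, 12 of 15 thin filament and Z-disc genes, 21 of 23 nuclear respiratory chain genes and 10 of 11 endothelial markers, beside 25.5% of all tested genes. Replicate 1 was the highest for 12 of 19 ER genes, 13 of 15 NRF2 targets and 13 of 15 ribosomal protein genes, beside 30.3% of all genes. Replicate 3 was the highest for 11 of 13 cardiac transcription factors and 8 of 10 intercalated disc genes, beside 44.2% of all genes. These counts describe the libraries and were not tested. As a share of all FPKM in a library, the 6 thick filament genes made up 5.74, 5.87 and 4.36% in day 0 replicates 1 to 3 and 0.864, 1.76 and 1.06% at day 6. Thin filament and Z-disc genes made up 8, 11.3 and 6.83% at day 0 and 1.77, 3.05 and 2.19% at day 6. In both lists every day 6 share was below every day 0 share, and replicate 2 held the most of the day 6 libraries. The nuclear respiratory chain made up 2.08, 3.25 and 2.01% and then 0.822, 1.11 and 0.939%, again without overlap. ER chaperones and unfolded protein response genes made up 0.127, 0.0261 and 0.109% at day 0 and 1.16, 0.293 and 0.879% at day 6, and NRF2 targets 0.0383, 0.0328 and 0.032% and then 0.302, 0.16 and 0.164%. Transcripts of mitochondrial DNA made up 20.3, 4.64 and 25% and then 23, 24.7 and 21.2%, where the groups overlapped.

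**Figure D4:**
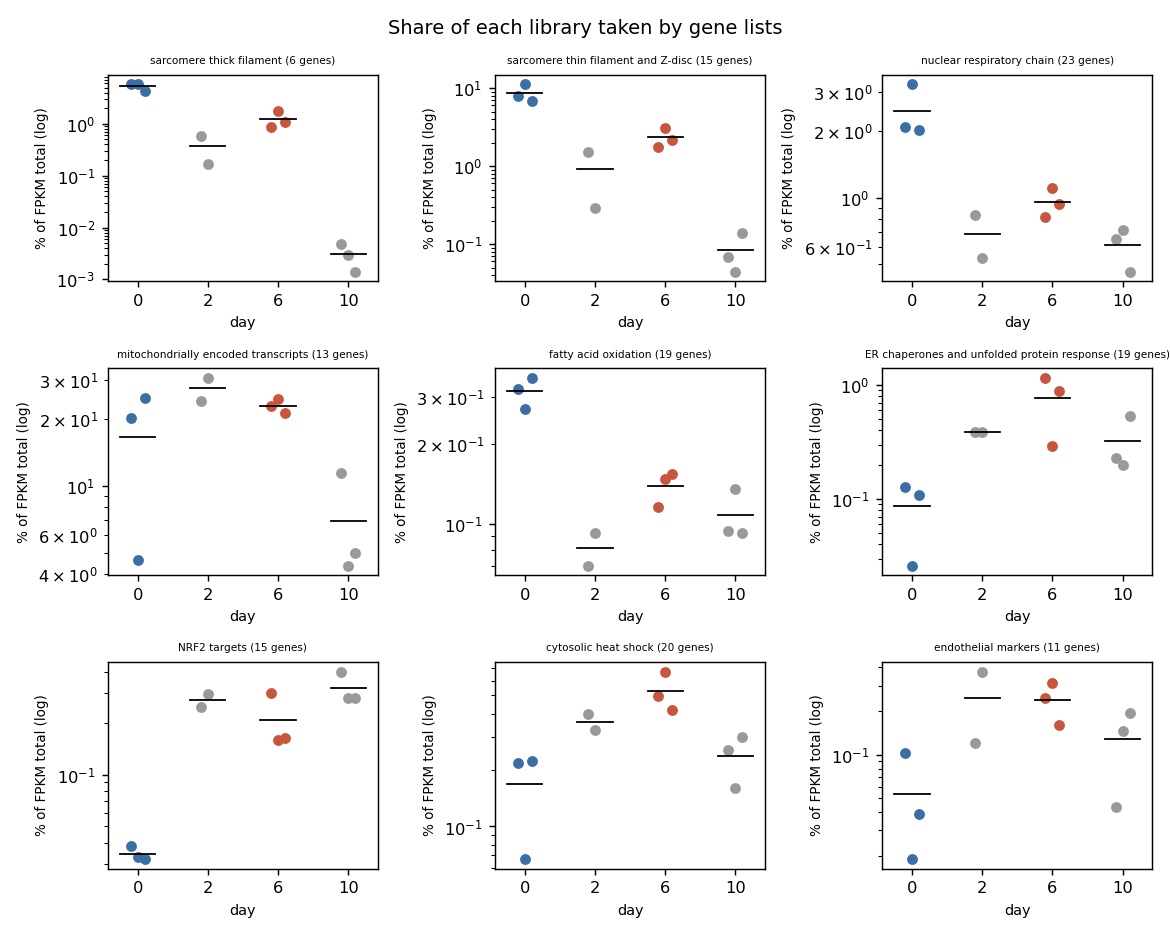
Share of the FPKM total taken by 9 gene lists (y axis, percent, log scale) at day 0, 2, 6 and 10 (x axis), 1 point per library with a line at the group mean, day 0 in blue and day 6 in red. The sarcomere and nuclear respiratory chain shares of the day 6 libraries lie below all day 0 shares, and at day 10 the thick filament share is at 0.00141% to 0.00478%.

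Day 6 was set beside the other culture times, first with day 0 as a shared control. The genes that differed from day 0 numbered 1124 (8.9%) for day 2, 1428 (11.3%) for day 6 and 2295 (18.2%) for day 10. The median log2 fold change of thick filament genes was -3.95 (day 2), -2.28 (day 6) and -8.87 (day 10). For thin filament and Z-disc genes it was -3.52 (day 2), -1.72 (day 6) and -5.91 (day 10), and for nuclear respiratory chain genes -1.53 (day 2), -1.30 (day 6) and -1.62 (day 10). The lowest of the 3 medians for the sarcomere lists was that of day 10, and the one nearest to 0 was that of day 6. The medians of ER genes were 2.26 (day 2), 2.60 (day 6) and 1.77 (day 10), those of NRF2 targets 2.72 (day 2), 2.33 (day 6) and 2.97 (day 10), and those of fibrillar and basement membrane matrix genes -0.17 (day 2), 0.17 (day 6) and 1.90 (day 10). Since these comparisons share the day 0 libraries, the times were compared with each other directly.

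**Figure D5:**
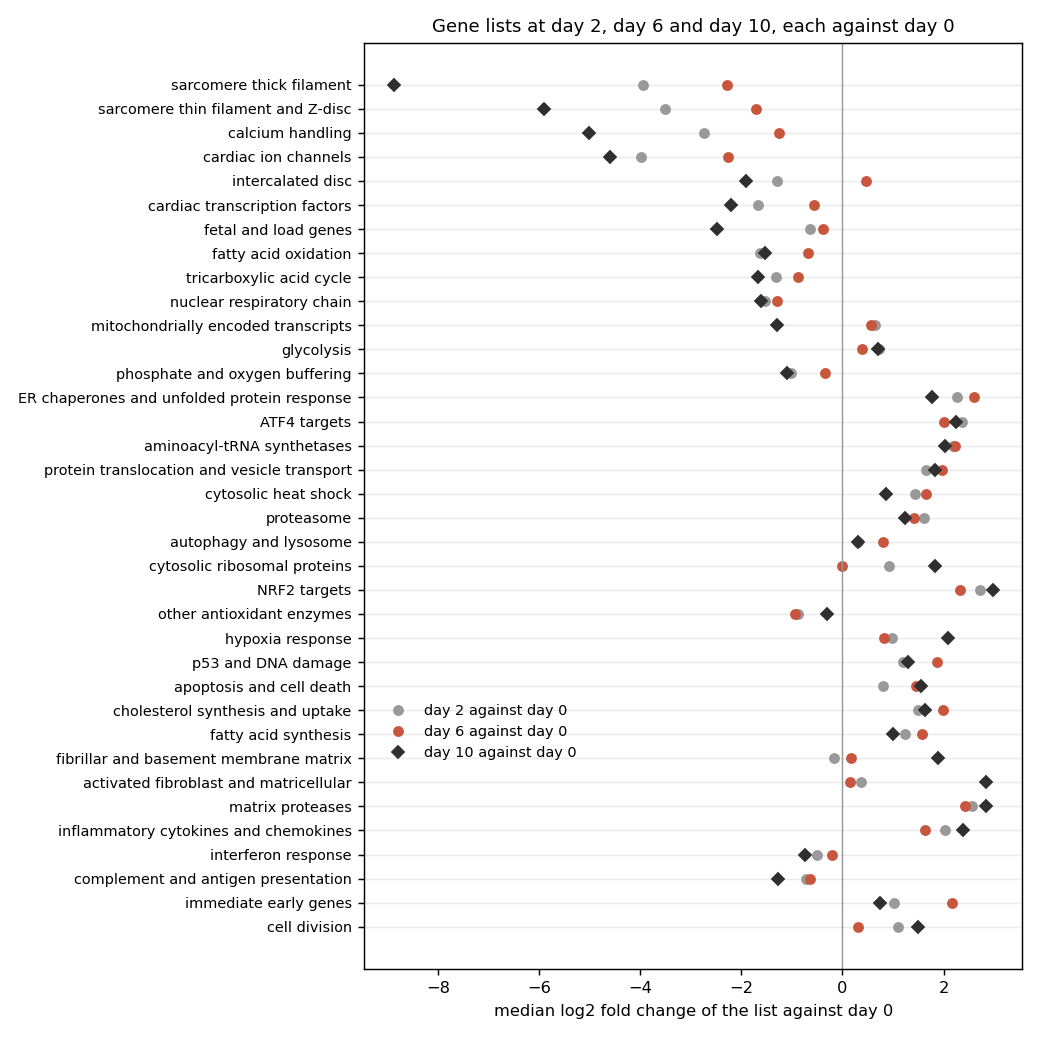
Median log2 fold change of each gene list against day 0 (x axis) at day 2 (grey circles), day 6 (red circles) and day 10 (black diamonds); the 3 comparisons share the day 0 libraries. The sarcomere, calcium and ion channel medians are lowest at day 10, and the ER, ATF4, tRNA synthetase, NRF2, heat shock and proteasome medians lie to the right of 0 at all 3 times.

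Between day 6 and day 2, no gene passed (0 of 12625 tested, 0%). At an unadjusted p under 0.05 there were 511 genes (4.05%) and the smallest limma adjusted p was 0.246. Without day 2 replicate 2 there were 2 calls, and without day 0 replicate 2 and day 2 replicate 1 together there were 4. With 2 day 2 libraries of which 1 stood apart, the median SE of this contrast was 0.66, so differences of the size called elsewhere may have gone undetected. MYH6 stood at 1106 and 359.8 FPKM in the day 2 libraries and 2063, 5295 and 2096 FPKM at day 6 (log2 fold change 2.17 ± 0.68, n = 3 against 2, limma adjusted p = 0.917). FLNC stood at 211 and 51.4 FPKM at day 2 and 912, 634 and 1267 FPKM at day 6 (log2 fold change 3.10 ± 0.81, n = 3 against 2, limma adjusted p = 0.857). For FLNC all day 6 libraries were above both day 2 libraries, and likewise for MYH6. The median day 6 against day 2 change was 1.51 for thick filament genes, 1.41 for thin filament genes, 1.62 for intercalated disc genes and -1.03 for ribosomal protein genes.

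Between day 10 and day 6, 619 genes differed (4.9%), of which 241 were higher at day 10 (1.91%) and 378 lower (2.99%). The sarcomere transcripts still present at day 6 were at far lower levels at day 10: 5 of 6 thick filament genes and 12 of 15 thin filament and Z-disc genes fell (medians -6.23 and -6.42). MYH6 stood at 2063, 5295 and 2096 FPKM at day 6 and 2.53, 1.39 and 1.3 FPKM at day 10 (log2 fold change -10.05 ± 0.61, adjusted p = 3.16e-06 by limma). TNNT2 stood at 2299.8, 5173 and 2222 FPKM and then 10.3, 7.12 and 5.26 FPKM (log2 fold change -8.49 ± 0.71, adjusted p = 4.18e-05 by limma), and CKMT2, the mitochondrial creatine kinase of muscle, at 263, 477 and 276 and then 0.486, 0 and 0.0437 FPKM (log2 fold change -8.14 ± 0.47, adjusted p = 3.16e-06 by limma). The lowest day 6 library was far above the highest day 10 library for each. The genes with a symbol and the largest increase after day 6 were AREG, SFRP2, NTS, TAGLN and ACTA2. AREG, an EGF receptor ligand, stood at 0.835, 0.132 and 0.102 FPKM at day 6 and 1064, 117 and 47.4 FPKM at day 10 (log2 fold change 7.11 ± 0.86, adjusted p = 0.000422 by limma). SFRP2, a secreted modulator of WNT signalling, stood at 0.883, 1.19 and 2.84 and then 134, 171 and 545 FPKM (log2 fold change 6.54 ± 0.75, adjusted p = 0.000265 by limma). NTS, the precursor of neurotensin, stood at 0.175, 0 and 0 FPKM at day 6 and 219.7, 76.7 and 39.2 FPKM at day 10 (limma adjusted p = 7.03e-05). TAGLN stood at 20.96, 87.5 and 12.8 FPKM and then 1946, 2395 and 1971 FPKM (log2 fold change 6.13 ± 0.64, adjusted p = 0.00017 by limma), so this gene was lower at day 6 than at day 0 and higher at day 10 than at day 6. ACTA2, smooth muscle actin, stood at 99.7, 40.1 and 36.7 FPKM at day 0, 4.2, 17.4 and 0.863 FPKM at day 6 and 264, 230.2 and 959 FPKM at day 10 (day 10 against day 6, limma adjusted p = 0.00697). Of 22 matrix genes 6 rose and 1 fell between day 6 and day 10, and COL3A1 stood at 238, 226 and 116 and then 961, 2656 and 5604 FPKM (log2 fold change 3.71 ± 0.88, adjusted p = 0.0296 by limma). Of 19 ER genes and 15 NRF2 targets 0 passed in either direction. The count was 292, 309 and 281 without day 6 replicates 1, 2 and 3, and 362, 273 and 492 without day 10 replicates 1, 2 and 3.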

How the data were processed

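RNA was extracted with Trizol and sequenced as TruSeq libraries, per the labels. Values are FPKM as deposited by the authors, in which fragments are divided by gene length and by the library total. Bowtie 0.12.2 and mm8, a mouse build, appear in the submitters' processing notes without a stated role. The identifiers are those of Ensembl pig genes, and how reads that fit several genes were counted is not given in the sources used here. Of 16319 genes 9686 had a symbol. Within a library the FPKM of a gene is a whole multiple of a step, and reads were recovered as the smallest whole numbers that fit. All values above 0, of 16073 genes, came out whole within a tolerance of 0.01.

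Genes with a mean of at least 1 FPKM over all 11 libraries (12625, of which 8157 with a symbol) were tested on log2(FPKM + 1), which understates changes of low genes, with limma 3.58.1 in R 4.3.3. The 4 time points were the terms of a linear model, moderated by eBayes with a trend over mean level, with 7 residual degrees of freedom and 5.89 from the prior. Tests were two-sided, with Benjamini-Hochberg adjustment over all tested genes and a threshold of 0.05. Alternatives used other scalings, pseudocounts, filters and array weights, a replicate block, and fits without single libraries. The fit was also run on simulated libraries, drawn from the same profile for all libraries and the same spread for all genes. That spread was taken without day 0 replicate 2 and day 2 replicate 1. The simulation cannot show how the fit handles a library that stands apart. Residuals of same-numbered libraries correlated at -0.105, 0.267 and 0.469 between day 0 and day 6, and at 0.275, 0.25 and 0.18 between day 6 and day 10. Between day 0 and day 10 the values were -0.376, 0.178 and 0.212. For day 2 they were -0.463 and -0.552 with day 0, 0.293 and -0.11 with day 6, and 0.336 and -0.132 with day 10. Differently numbered libraries were not compared, and the labels state no pairing. The numbers may pair libraries, but this cannot be told from these values. The comparison and the gene lists were chosen with earlier results of these data known. Genes with a symbol were named by a rule: a panel of 18 heart genes, of which 11 could be tested, the 10 higher and 10 lower with the largest change that did not overlap, up to 3 members with the smallest p from each list with at least 3 calls, the 10 highest at day 6, and the 5 higher and 5 lower with the largest change between day 6 and day 2 (of which none passed) or day 10. Some of the genes so chosen are not reported here.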

Additional observations from a re-analysis of the deposited data

Results flagged for a closer look

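The day 10 and day 6 states, both also compared with the day 0 libraries, were tested against each other, and 10 genes are set out here because that difference passed. The 5 of them that were lower at day 10 than at day 6 code for sarcomere proteins and, in CKMT2, a mitochondrial creatine kinase, with log2 fold changes of -10.05 for MYH6, -8.49 for TNNT2, -8.19 for MYL3, -8.14 for CKMT2 and -8.0 for ACTA1. Their limma adjusted p were 3.16e-06, 4.18e-05, 0.000109, 3.16e-06 and 1.55e-05. MYL3 stood at 4045, 8832 and 4895 FPKM in the day 6 libraries and 42.6, 22.1 and 6.01 FPKM at day 10, and ACTA1 at 2845, 5251 and 3974 and 23.6, 12.4 and 9.64 FPKM. Higher at day 10 were 5 genes, by log2 fold changes of 7.11 for AREG, 6.54 for SFRP2, 6.39 for NTS, 6.13 for TAGLN and 6.11 for ACTA2 (limma adjusted p = 0.000422, 0.000265, 7.03e-05, 0.00017 and 0.00697). Each of these 10 calls was kept when any 1 day 10 library was left out. AREG was highest in day 10 replicate 1 and lowest in replicate 3, and NTS was at 0 in the day 0 libraries and in 2 of 3 day 6 libraries.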

How the results depend on the processing

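At an adjusted p under 0.05 the number of genes that differed between day 6 and day 0 was 1428, and it moved by over 1.5 times with a pseudocount of 0.1 (942), median ratio scaling (899), array weights (6632) and a fit of the compared groups alone (536). It ranged from 119 to 1444 when 1 library was left out. Between day 6 and day 2 the count was 0 in all settings but 2, with 0 to 2 when 1 library was left out and 4 without day 0 replicate 2 and day 2 replicate 1 together. Between day 10 and day 6 it was 619, and 1130 with quantile normalization, 5958 with array weights, 1903 with the compared groups alone, 2524 without day 0 replicate 2 and day 2 replicate 1 together, and 273 to 492 with 1 library left out. The cause of these moves was not tested. A fit with fewer libraries has fewer residual degrees of freedom, and such fits gave both larger and smaller counts. With a replicate block the counts were 1096, 0 and 504, and 84 of 89 calls on named genes were kept. A planned voom fit with TMM factors on recovered reads also lowered the count for day 6 against day 0 by over 1.5 times and gave more lower than higher calls, and its values are not reported, since count tools are not used here on FPKM.

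Of the 89 calls on named genes in both comparisons, 62 were kept with median ratio scaling, 40 without day 6 replicate 1 and 59 without day 6 replicate 3. No called value turned its sign in any setting. For higher calls in day 6 against day 0, median ratio scaling could not have turned it. Values that were not called did turn for 12 genes in day 6 against day 0, from log2 fold changes of ATP6 1.12, COX1 0.34, COX2 0.77, COX3 0.26, CYTB 0.05, GJA1 0.49, ND2 0.99, ND3 0.59, ND4 0.82, POSTN -0.04, RYR2 -0.42 and VIM 0.58. With median ratio scaling they were GJA1 -0.64, VIM -0.57, COX1 -0.81, ATP6 -0.03, COX3 -0.89, COX2 -0.38, ND3 -0.56, ND4 -0.33, CYTB -1.10 and ND2 -0.16, and with day 0 replicate 2 left out as well, a setting chosen after seeing the data, GJA1 -1.28, VIM -0.01, COX1 -1.20, ATP6 -0.50, COX3 -0.50, COX2 -0.55, ND3 -0.18, ND4 -0.81, CYTB -1.29 and ND2 -0.49. With array weights they were GJA1 -0.42, COX1 -0.80 and CYTB -0.54. Without day 0 replicate 2 and day 2 replicate 1 together they were GJA1 -0.67, COX1 -0.58, ND4 -0.20 and CYTB -0.67. POSTN was at 0.13 with a pseudocount of 0.1 and at 0.17 with equal FPKM totals. With 1 library left out, the ranges were COX1 -0.58 to 0.86, CYTB -0.67 to 0.54, GJA1 -0.67 to 1.14, ND4 -0.20 to 1.5, POSTN -1.27 to 0.88 and RYR2 -2.30 to 0.53. Median SEs of 0.59, and 0.66 for day 6 against day 2, limit what could be called, and counting error adds to it for genes of a few FPKM.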
